A study of Mus musculus with 16 samples.

Results

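Trimethylated lysine 4 and trimethylated lysine 27 of histone H3 were compared at gene starts in haploid spermatids of wild-type (WT) mice. The 4 libraries compared, 2 of H3K4me3 and 2 of H3K27me3, are the WT libraries of these marks among the 16 libraries of 8 groups in the series, which also profiled H3K9me3, an IgG control, and animals lacking the X-linked histone variant H2A.B. Spermatids were sorted from dissociated testes by DNA content and dye signal, and the methods name 2 WT males of 2 months of age for the replicate experiments. Both WT males were siblings of H2A.B KO males from a line backcrossed to C57BL/6J, carried no deletion of their own, and received no treatment. The labels date the libraries of replicate 1 and those of replicate 2 to different days, so animal and day cannot be told apart, and each group holds 2 libraries. The sort takes cells by ploidy and not by stage, and whether a low value reflects fewer cells with a mark or less of the mark per cell cannot be told apart in such bulk libraries.

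H3K4me3 is placed at gene starts by SET1/MLL complexes, which are drawn to unmethylated CpG islands, and it accompanies promoters that are active or ready to be transcribed. H3K27me3 is placed by the Polycomb repressive complex PRC2 and covers silent genes, above all those of developmental regulators. Gene starts with both marks, often called bivalent, are well known in embryonic stem cells and germ cells, and round spermatids combine expression of sperm genes with silence of somatic programs.

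AutoCUT&RUN releases DNA fragments where an antibody tethers a nuclease, and every fragment with distinct coordinates was counted once. The counting window reached 1 kb to each side of the start of each of 20807 autosomal protein-coding genes of the GENCODE vM21 annotation. Distinct fragments numbered 784360 and 2181065 in the H3K4me3 libraries (replicates 1 and 2) and 2891646 and 200457 in the H3K27me3 libraries, against 162232 and 159611 with IgG. Levels are given as distinct fragments per 1000000 distinct fragments of the library (CPM). A single fragment was therefore worth 1.27 and 0.458 CPM in H3K4me3 and 0.346 and 4.99 CPM in H3K27me3, so H3K27me3 replicate 2 resolves low values the least. Values are given below as replicate 1 and then replicate 2.

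A gene was said to carry a mark when its window held, in both WT libraries of that mark, at least 2 distinct fragments and at least 4 times what an even spread of the library over the autosomes would give. It was said to lean to a mark when limma found the 2 libraries of that mark higher at an adjusted p under 0.05 on the log2(CPM + 1) scale, among genes with at least 10 fragments over the 4 libraries. Carrying is a description without a test, and leaning is the tested difference. Both are relative to each library's own total, and the antibodies differ, so a log2 difference of 0 does not mean equal amounts of both marks.

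Promoter sequences of 8 genes illustrate the classes, with 3 genes that carried H3K4me3 only (Acrv1, Ldhc, Wdr5), 2 that carried both marks (Nkx6-2, Cbx8), and 3 that carried H3K27me3 only (Ldhb, Hoxd11, Lhcgr). Each runs 5′ to 3′ on the gene's strand, from 250 bases before to 50 after the RefSeq start in GRCm38.p6, which is the mm10 assembly of the fragment lists, and capitals mark CpG dinucleotides. The 8 were chosen after their values were seen, to span CpG content and to pair Ldhc with Ldhb.
Acrv1: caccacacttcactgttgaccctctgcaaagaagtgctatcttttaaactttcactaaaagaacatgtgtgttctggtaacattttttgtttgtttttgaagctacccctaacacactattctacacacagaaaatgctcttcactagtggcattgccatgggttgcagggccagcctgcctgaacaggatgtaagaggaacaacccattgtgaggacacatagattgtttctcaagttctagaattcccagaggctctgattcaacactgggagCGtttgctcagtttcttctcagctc
Ldhc: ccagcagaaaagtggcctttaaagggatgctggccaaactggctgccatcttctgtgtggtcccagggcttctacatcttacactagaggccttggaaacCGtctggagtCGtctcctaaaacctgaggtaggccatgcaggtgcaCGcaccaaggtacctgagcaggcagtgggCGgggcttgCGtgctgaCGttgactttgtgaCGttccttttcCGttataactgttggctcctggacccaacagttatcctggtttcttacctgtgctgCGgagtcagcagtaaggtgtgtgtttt
Wdr5: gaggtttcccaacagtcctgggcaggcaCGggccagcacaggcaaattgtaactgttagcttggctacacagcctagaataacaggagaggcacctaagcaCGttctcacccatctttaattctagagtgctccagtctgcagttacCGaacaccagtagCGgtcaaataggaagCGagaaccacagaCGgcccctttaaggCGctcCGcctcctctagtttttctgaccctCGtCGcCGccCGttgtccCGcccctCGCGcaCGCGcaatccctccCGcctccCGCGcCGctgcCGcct
Nkx6-2: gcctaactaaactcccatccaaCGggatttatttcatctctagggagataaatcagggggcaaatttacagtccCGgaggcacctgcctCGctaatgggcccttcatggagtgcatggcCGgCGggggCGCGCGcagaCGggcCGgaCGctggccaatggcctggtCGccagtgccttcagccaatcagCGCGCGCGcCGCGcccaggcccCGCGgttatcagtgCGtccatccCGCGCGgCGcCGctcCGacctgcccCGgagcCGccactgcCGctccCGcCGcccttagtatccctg
Cbx8: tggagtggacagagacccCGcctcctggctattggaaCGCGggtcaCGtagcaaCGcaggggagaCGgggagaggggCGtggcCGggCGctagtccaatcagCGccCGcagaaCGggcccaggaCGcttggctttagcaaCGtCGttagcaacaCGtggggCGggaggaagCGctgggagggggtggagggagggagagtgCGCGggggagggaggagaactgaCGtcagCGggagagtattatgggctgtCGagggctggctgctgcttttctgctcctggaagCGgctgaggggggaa
Ldhb: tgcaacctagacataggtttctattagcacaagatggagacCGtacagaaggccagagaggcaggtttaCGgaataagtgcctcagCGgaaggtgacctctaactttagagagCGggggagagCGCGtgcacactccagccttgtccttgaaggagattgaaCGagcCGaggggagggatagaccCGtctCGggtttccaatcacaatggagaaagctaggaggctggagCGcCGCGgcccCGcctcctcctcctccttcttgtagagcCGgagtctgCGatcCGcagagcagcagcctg
Hoxd11: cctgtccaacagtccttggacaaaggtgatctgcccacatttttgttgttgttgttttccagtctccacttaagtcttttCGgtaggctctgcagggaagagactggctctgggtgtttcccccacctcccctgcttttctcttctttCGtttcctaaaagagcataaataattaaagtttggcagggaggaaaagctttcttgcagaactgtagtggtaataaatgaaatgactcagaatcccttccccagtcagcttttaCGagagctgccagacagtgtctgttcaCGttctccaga
Lhcgr: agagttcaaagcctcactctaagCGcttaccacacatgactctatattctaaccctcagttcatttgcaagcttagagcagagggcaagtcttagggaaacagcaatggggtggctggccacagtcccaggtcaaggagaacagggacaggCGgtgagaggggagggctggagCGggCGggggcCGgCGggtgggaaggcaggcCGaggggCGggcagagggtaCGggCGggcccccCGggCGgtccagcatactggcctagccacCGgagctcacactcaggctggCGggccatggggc
Acrv1 encodes an acrosomal protein, and its sequence (chr9:36692970-36693269, + strand) holds a single CpG. Ldhc, the lactate dehydrogenase subunit of the male germ line (chr7:46861013-46861312, + strand), has 9 and Wdr5, a core subunit of SET1/MLL complexes (chr2:27514897-27515196, + strand), has 22. The homeobox gene Nkx6-2 (chr7:139582748-139583047, - strand) has 32 and the Polycomb gene Cbx8 (chr11:119040864-119041163, - strand) has 24. The somatic lactate dehydrogenase subunit gene Ldhb (chr6:142507908-142508207, - strand) has 17, Hoxd11 (chr2:74679308-74679607, + strand) has 4, and Lhcgr, the receptor through which Leydig cells respond to luteinizing hormone (chr17:88791965-88792264, - strand), has 14. Over the 11371 genes whose RefSeq start lay within 100 bp of the counted start, the median was 22 CpGs for genes with H3K4me3 only, 20 for both marks, 17 for H3K27me3 only, and 4 for neither.

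Most gene starts held a single mark or none. H3K4me3 was carried by 9563 of the 20807 genes (46.0%) and H3K27me3 by 3667 (17.6%), and 518 genes (2.49%) carried both. This left 9045 genes with H3K4me3 only, 3149 with H3K27me3 only, and 8095 with neither. Genes with both marks made up 5.42% of the H3K4me3 carriers and 14.1% of the H3K27me3 carriers, whereas 52.8% of the genes without H3K27me3 carried H3K4me3. Applied to the 2 IgG libraries of WT animals, the same rule was met at 38 genes (0.183%), of which 13 were among the 518 with both marks. In these shallow libraries 2 fragments mean at least 17.50 and 17.56 times an even spread, so the rule was stricter for IgG and its 0.183% is no background rate for the marks. Without H3K27me3 replicate 2, so that H3K27me3 rested on 1 library, 984 genes carried both marks, and without H3K4me3 replicate 2 the number was 836.

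**Figure D1:**
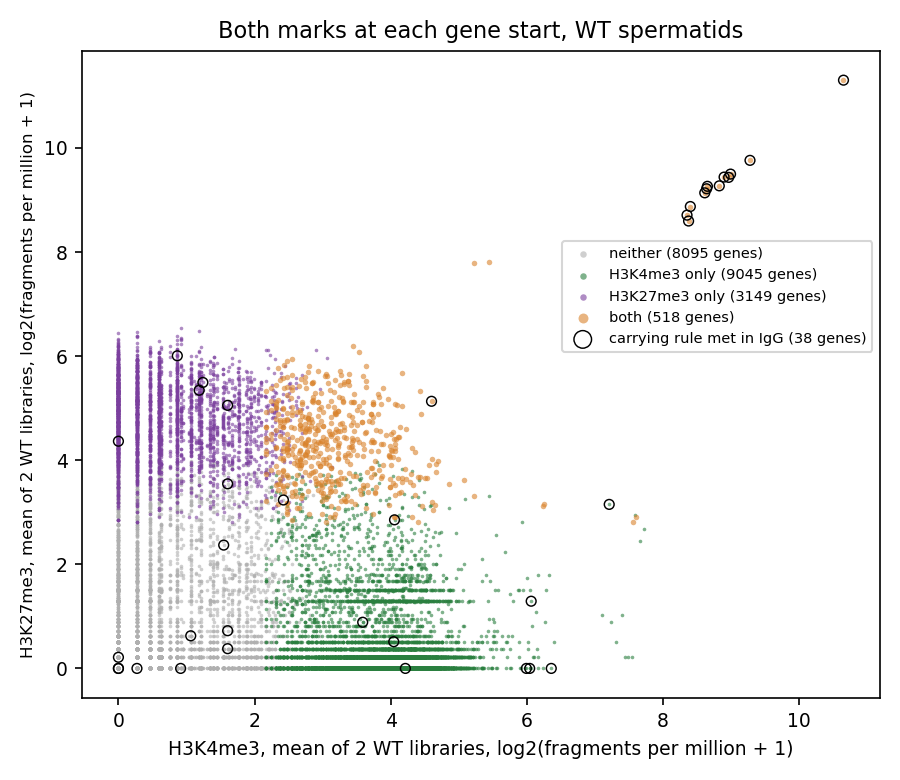
Each point is a gene start, placed by the mean over the 2 WT libraries of log2(CPM + 1) for H3K4me3 (x axis) and H3K27me3 (y axis) and coloured by the mark it carried. The 9045 genes with H3K4me3 only lie along the bottom and the 3149 with H3K27me3 only along the left, the 518 with both lie between them, and circles mark the 38 genes that met the rule in IgG.

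The tested difference separated the marks at most gene starts. Of 14691 genes with enough fragments, 8605 leaned to H3K4me3 (58.6%), 4160 leaned to H3K27me3 (28.3%), and 1926 leaned to neither. The median log2 difference was 3.79 among the former and -3.97 among the latter, and 3252 and 2045 genes differed by more than 4 on this scale. For 8596 of the genes leaning to H3K4me3 and 4066 of those leaning to H3K27me3, the 2 libraries of the mark both lay above the 2 of the other. Of the genes carrying H3K4me3 only, 8325 leaned to it and 42 to H3K27me3. Of those carrying H3K27me3 only, 3110 leaned to it and 0 to H3K4me3. Of those carrying neither, 680 leaned to H3K27me3, 243 to H3K4me3, and 1056 to neither, and 6116 were not tested. Leaning, carrying, and separate libraries all rest on the same counts of the same 4 libraries, so their agreement is largely built in. The median over all genes tested was 2.77 rather than 0. Quantile normalization, which forces the libraries to 1 distribution, moved this median to 0.66 and the calls to 2650 and 4374, so that 37.7% of calls rather than 67.4% were for H3K4me3. With 2 libraries against 2 the calls also hang on each library, and the numbers leaning to H3K4me3 and H3K27me3 were 6959 and 550 without H3K4me3 replicate 1, 4916 and 63 without H3K4me3 replicate 2, 3797 and 1134 without H3K27me3 replicate 1, and 1725 and 2645 without H3K27me3 replicate 2. As shares of the genes tested these are 48.6% and 3.84%, 43.96% and 0.563%, 34.2% and 10.2%, and 11.8% and 18.04%, and under quantile normalization 18.04% and 29.8%. Of the genes named here by rule, 52 leaned to H3K4me3, and 30 of these lost the call without H3K27me3 replicate 2 and 12 without replicate 1. Of the 53 that leaned to H3K27me3, 53 lost the call without H3K4me3 replicate 2 and 46 without replicate 1, so 31 of the 52 and 53 of the 53 hang on at least 1 library.

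Replicates of a mark resembled each other across genes, and the marks ran opposite to each other. Pearson's r over the 20807 windows on the log2(CPM + 1) scale was 0.924 between the H3K4me3 libraries and 0.853 between the H3K27me3 libraries. Between the marks it ranged from -0.327 to -0.211, and it was 0.165 between the IgG libraries. These correlations are across genes, which are not independent replicates, and they share each library's depth.

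Both marks were denser at gene starts than IgG. The windows cover 1.59% of the autosomes and held 15.5% and 15.3% of the autosomal fragments of the H3K4me3 libraries, 14.9% and 12.2% of those of the H3K27me3 libraries, and 9.43% and 7.30% with IgG. The windows of the 38 genes with IgG signal held 83.1% and 83.2% of the IgG fragments in windows. Without them the shares were 1.60% and 1.23% with IgG, near the 1.59% of an even spread, 14.5% and 14.8% for H3K4me3, and 14.2% and 11.0% for H3K27me3. The mean share over all windows was 15.4% ± 0.124 (SD, n = 2) for H3K4me3 and 13.6% ± 1.96 (SD, n = 2) for H3K27me3. Their difference of 1.87 percentage points was 0.573 in replicate 1 and 3.17 in replicate 2 (-0.0159 and 5.29 with windows of 2 kb), and an exact two-sided permutation test gave p = 0.3333, the smallest that 2 libraries against 2 can give. In the single libraries, 95% Wilson intervals reached from 15.4 to 15.6 and from 15.3 to 15.4 for H3K4me3 and from 14.90 to 14.98 and from 12.02 to 12.31 for H3K27me3, which covers counting error only.

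Averaged by class, both marks were highest near the start and lower from 3 to 5 kb away. The classes were set by counts within 1 kb in these same libraries. A high level there, and little of the absent mark at genes with a single mark, therefore follow in large part from the rule. Among genes with H3K4me3 only, H3K4me3 had its highest 100-bp bin within 100 bp upstream of the start in both libraries and averaged 19.6 and 19.97 times an even spread within 1 kb. From 3 to 5 kb away it averaged 3.88 and 4.62 times, which is 19.8% and 23.1% of the level within 1 kb. H3K27me3 in genes with H3K27me3 only had its highest bin 500 and 300 bp downstream, averaged 41.8 and 34.8 times within 1 kb, and averaged 6.82 and 7.60 times from 3 to 5 kb away, which is 16.3% and 21.9%. From 1 to 2 kb away, H3K4me3 kept 64.9% and 70.8% of its level within 1 kb and H3K27me3 65.5% and 63.9%. At these genes H3K4me3 averaged 1.62 and 1.08 times, and at genes with H3K4me3 only H3K27me3 averaged 1.04 and 0.785 times. At genes with both marks, H3K4me3 averaged 13.7 and 12.6 times and H3K27me3 30.1 and 28.3 times, with IgG at 0.759 and 0.722. The highest bins there lay 700 and 800 bp downstream for H3K4me3 and 800 bp downstream and 200 bp upstream for H3K27me3, so their places did not separate the marks. From 3 to 5 kb away H3K4me3 kept 27.3% and 36.6% of its level within 1 kb at these genes and H3K27me3 25.7% and 28.1%, higher shares than where either mark stood alone. IgG itself averaged 1.59 and 0.969 times within 1 kb at genes with H3K4me3 only. Its highest bin there also lay within 100 bp upstream of the start in both libraries. Within 100 bp to either side IgG stood at 2.63 and 1.58 times, against 27.3 and 23.4 for H3K4me3. Overlapping windows and genes with IgG signal were left out of these averages.

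**Figure D2:**
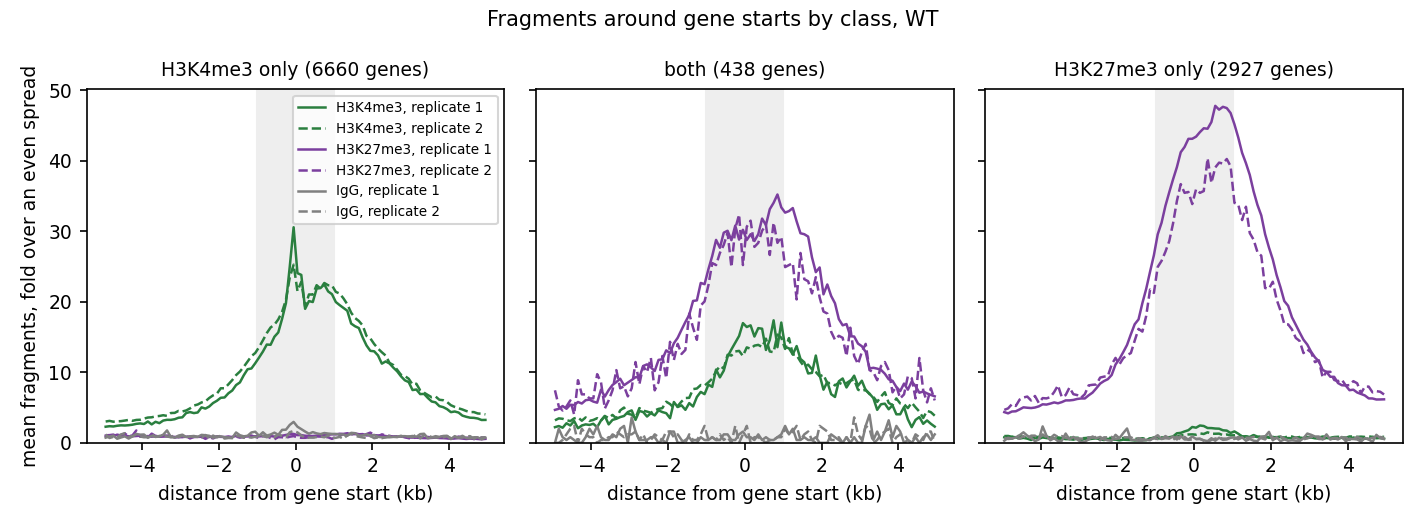
Mean number of fragments in 100-bp bins, as fold over an even spread of the library (y axis), against distance from the gene start in kb (x axis), for genes carrying H3K4me3 only, both marks, or H3K27me3 only. Solid lines are replicate 1, dashed lines replicate 2, and the grey band is the counted window, whose counts in these libraries set the classes. H3K4me3 averaged 19.6 and 19.97 times within 1 kb in the first panel, and H3K27me3 41.8 and 34.8 times in the last. Averages of IgG within 1 kb lay between 0.573 and 1.59 times in the 3 panels, highest in the first. Single bins of IgG went outside this range. Within 100 bp of the start IgG stood at 2.63 and 1.58 times in the first panel.

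Over all windows together, short fragments made up a smaller share of H3K27me3 than of H3K4me3 in both replicates. This did not hold in every class or over the autosomes as a whole. Fragments of at most 120 bp, shorter than a whole nucleosome's DNA, made up 29.6% and 23.3% of H3K4me3 fragments at genes with H3K4me3 only. They made up 8.17% and 11.4% of H3K27me3 fragments at genes with H3K27me3 only. H3K27me3 at genes with H3K4me3 only had 16.2% and 32.8%, the latter of 1058 fragments, so replicate 2 went the other way there. It also did at genes with neither mark (19.1% for H3K27me3 against 18.3% for H3K4me3). At genes with both marks the shares were 24.4% and 19.2% for H3K4me3 and 10.5% and 12.47% for H3K27me3. The share for H3K4me3 was thus lower than where it stood alone in both libraries and that for H3K27me3 higher in both, and the marks stayed apart. With 2 libraries of each mark these differences were not tested. IgG fragments were at most 120 bp long in 48.6% and 44.7% of cases at genes with H3K4me3 only, 47.9% and 58.3% with both marks, and 53.5% and 43.5% with H3K27me3 only, above either mark in every class. Over all autosomal fragments the share of at most 120 bp was 23.2% and 22.8% for H3K4me3 and 10.7% and 24.5% for H3K27me3, so the difference was 12.54 percentage points in replicate 1 and -1.65 in replicate 2 (exact two-sided permutation test, p = 1).

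CpG content separated starts that carried a mark by the rule from those with neither more than the marks from each other. Carrying neither is not the absence of a mark, since 680 of these genes leaned to H3K27me3 and 243 to H3K4me3. The observed over expected CpG ratio of the window had a median of 0.631 at genes with H3K4me3 only, 0.614 with both marks, 0.535 with H3K27me3 only, and 0.195 with neither. Ratios over 0.6 were found at 56.4%, 53.5%, 35.8%, and 9.60% of these genes. Genes with both marks had the highest GC content, with a median of 57.1%, against 52.9% with H3K4me3 only, 55.5% with H3K27me3 only, and 46.1% with neither. A second start lay close enough for windows to overlap at 26.3% of genes with H3K4me3 only, 13.7% with both, 6.92% with H3K27me3 only, and 4.52% with neither.

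**Figure D3:**
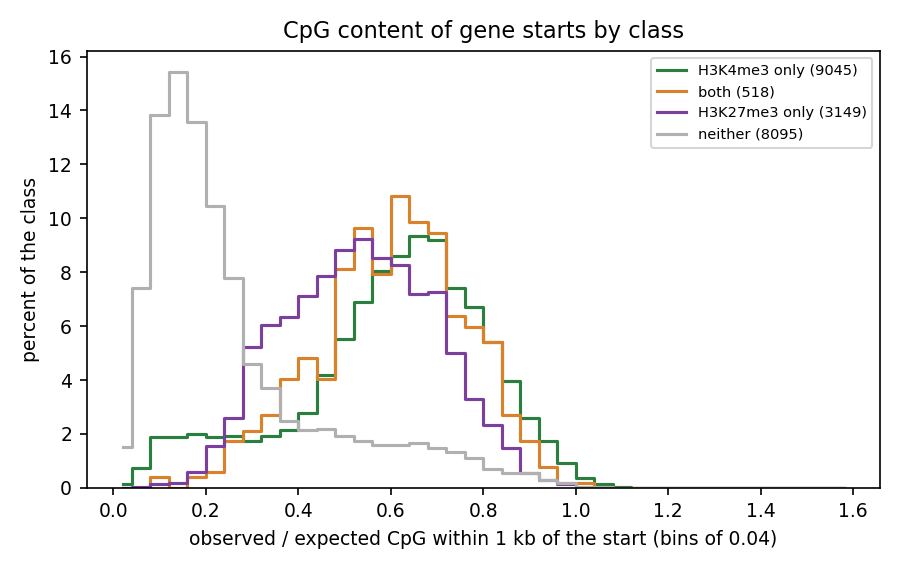
Percent of the genes of each class (y axis) by observed over expected CpG ratio within 1 kb of the start (x axis, bins of 0.04). The 8095 genes with neither mark peak at low ratios, with a median of 0.195, and the other classes lie higher, with medians from 0.535 to 0.631.

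Gene lists showed which functions went with which mark, and the counts below stand beside the shares over all genes tested, 58.6% leaning to H3K4me3 and 28.3% to H3K27me3. Genes used by every cell mostly leaned to H3K4me3. Of 80 ribosomal protein genes, 76 had enough fragments to test, 70 of these leaned to H3K4me3 and 0 to H3K27me3, and their median log2 difference was 3.68. Rps19, of the small ribosomal subunit, held 17 and 47 H3K4me3 fragments (21.7 and 21.5 CPM) and 0 and 0 H3K27me3 fragments. Of 38 proteasome subunit genes, 35 were tested, 29 leaned to H3K4me3, and 2 leaned to H3K27me3. Psmb7, a catalytic subunit, held 16 and 43 H3K4me3 fragments (20.4 and 19.7 CPM) and 0 and 0 H3K27me3 fragments. Both exceptions, Psmb8 and Psmb9, named after their values were seen, are subunits of the immunoproteasome. Psmb8 held 1 and 1 H3K4me3 fragments and 122 and 15 H3K27me3 fragments (log2 difference -4.74, SE 0.75, adjusted p = 0.00563), and Psmb9 held 2 and 1 against 129 and 14 (log2 difference -4.39, SE 0.72, adjusted p = 0.00612), though its window overlaps that of another gene. Without H3K27me3 replicate 1, 29 of 75 ribosomal protein genes tested leaned to H3K4me3 (38.7%) and 17 of 34 proteasome genes (50%), against 34.2% of all genes. Without H3K27me3 replicate 2 the counts were 19 of 76 and 8 of 35 (25% and 22.9%, against 11.8%), and under quantile normalization 17 of 76 and 13 of 35 (22.4% and 37.1%, against 18.04%). The ribosomal share was thus near that of all genes without replicate 1 and under quantile normalization.

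Genes of spermatids carried H3K4me3 with little H3K27me3 and few CpGs. Of 38 spermatid genes, 36 carried H3K4me3 only, 1 carried both marks, and 1 neither, and 34 of 37 tested leaned to H3K4me3 and 0 to H3K27me3. Their median CpG ratio was 0.281, well under the median of 0.631 for genes with H3K4me3 only. Acrv1 held 16 and 45 H3K4me3 fragments (20.4 and 20.6 CPM) and 0 and 0 H3K27me3 fragments, at least 21.2-fold higher than the 3 fragments over both H3K27me3 libraries that a count of 0 allows (log2 difference 4.43, SE 0.34, adjusted p = 0.00268). Acr, the acrosomal protease acrosin, held 22 and 66 against 0 and 0, at least 30.6-fold higher, and Tssk1, a testis-specific serine kinase, held 16 and 78 against 0 and 0, at least 32.7-fold higher. In these 3 genes the libraries of the marks do not overlap. Windows of the nuclear proteins that replace histones in late spermatids held less. Prm2 held 3 and 24 H3K4me3 fragments (3.82 and 11.0 CPM) and leaned to H3K4me3 (log2 difference 3.29, SE 0.76, adjusted p = 0.0160), Tnp2 held 8 and 35 (10.2 and 16.05 CPM) and leaned to it as well (3.94, SE 0.55, adjusted p = 0.00417), and Prm1 held 2 and 3 and was too low to test. Tnp1 held 8 and 24 H3K4me3 fragments but also 27 and 0 H3K27me3 fragments (log2 difference 0.68, SE 0.76, adjusted p = 0.433). It was called for H3K4me3 with windows of 2 kb (1.07, adjusted p = 0.0197), and its sign turned under quantile normalization (-1.10, adjusted p = 0.202). The list's exception with both marks, Hspa1l, a heat shock protein of spermatids, held 19 and 71 H3K4me3 and 16 and 4 H3K27me3 fragments and leaned to H3K4me3 (log2 difference 2.13, SE 0.31, adjusted p = 0.00461), but its window overlaps that of a neighbouring gene. Its difference was 1.31 with limma-trend (adjusted p = 0.192) and 0.43 without H3K27me3 replicate 1 (adjusted p = 0.416), and the call was also lost without H3K27me3 replicate 2 or H3K4me3 replicate 2. The calls of Prm2 and Tnp2 were lost without either H3K27me3 replicate and under quantile normalization, where the differences were 0.99 (adjusted p = 0.240) and 2.35 (adjusted p = 0.202). Without H3K27me3 replicate 2, 4 spermatid genes carried both marks and 8 of 37 leaned to H3K4me3 (21.6%, against 11.8% of all genes). The count was 21 of 37 without replicate 1 (56.8%, against 34.2%) and 17 of 37 under quantile normalization (45.9%, against 18.04%).

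The lactate dehydrogenase genes showed the contrast within a family. Ldhc, whose enzyme replaces the somatic subunits in male germ cells, held 21 and 61 H3K4me3 fragments (26.8 and 28.0 CPM) and 0 and 0 H3K27me3 fragments, at least 28.5-fold higher (log2 difference 4.83, SE 0.39, adjusted p = 0.00268). Ldhb held 0 and 0 H3K4me3 fragments and 200 and 18 H3K27me3 fragments (69.2 and 89.8 CPM), at least 69.7-fold higher (log2 difference -6.29, SE 0.46, adjusted p = 0.00268). The libraries of the marks were fully separate at both genes. Ldha, the other somatic subunit gene, was named after its values were seen. It held 1 and 0 H3K4me3 and 1 and 0 H3K27me3 fragments at its annotated start and carried neither mark there. Marks at another start of the gene would have been missed.

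Genes of earlier germ cell stages fell on both sides. Of 30 meiotic prophase genes, 24 carried H3K4me3 only and 6 neither, and 24 of 27 tested leaned to H3K4me3. Brdt, a bromodomain protein of meiotic and haploid cells, held 12 and 39 H3K4me3 fragments (15.3 and 17.9 CPM) and Sycp1, of the synaptonemal complex, 15 and 32 (19.1 and 14.7 CPM), both with 0 and 0 H3K27me3 fragments. Stra8, the gene that starts meiosis in response to retinoic acid and the list's exception, was named after its values were seen. It held 1 and 1 H3K4me3 and 45 and 1 H3K27me3 fragments and leaned to H3K27me3 (log2 difference -3.04, SE 0.59, adjusted p = 0.00984). By the rule it carried neither mark. Its call was not kept with windows of 500 bp, without either H3K4me3 replicate, or without H3K27me3 replicate 1. Sycp3, also of the synaptonemal complex, held 5 and 43 H3K4me3 and 0 and 1 H3K27me3 fragments and was not called (log2 difference 2.40, SE 1.28, adjusted p = 0.145), though it was with the replicate number as a block (1.97, adjusted p = 0.00664). Of 20 spermatogonial genes, by contrast, 8 carried H3K27me3 only, 5 both marks, 2 H3K4me3 only, and 5 neither, and 11 of 19 tested leaned to H3K27me3 and 3 to H3K4me3. Zbtb16, a transcription factor of undifferentiated spermatogonia, held 0 and 0 H3K4me3 and 136 and 6 H3K27me3 fragments (47.0 and 29.9 CPM), at least 45.4-fold higher for H3K27me3 (log2 difference -5.45, SE 0.53, adjusted p = 0.00268). Gfra1, a receptor for the niche factor GDNF, held 2 and 1 against 203 and 13, and the stem cell factor receptor gene Kit held 4 and 5 against 87 and 2. The 3 that leaned to H3K4me3 were Foxo1, Egr4, and Id4, of which Id4 held 2 and 18 H3K4me3 and 2 and 0 H3K27me3 fragments (log2 difference 2.59, SE 0.64, adjusted p = 0.0190). The difference of Id4 was 0.06 under quantile normalization (adjusted p = 0.921), and its call was also lost with unmodified voom weights (2.31, adjusted p = 0.0631) and without H3K4me3 replicate 1 or either H3K27me3 replicate. That of Kit was lost with limma-trend (-2.04, adjusted p = 0.0657) and on leaving out any 1 of the 4 libraries. Without H3K27me3 replicate 1, 10 of 25 meiotic genes leaned to H3K4me3 (40%, against 34.2% of all genes), and without replicate 2, 4 of 27 (14.8%, against 11.8%). Under quantile normalization 5 of 27 did (18.5%, against 18.04%), so in these settings the meiotic genes lay near the share of all genes. Spermatogonial genes leaning to H3K27me3 numbered 1 of 19 and 0 of 15 without H3K4me3 replicates 1 and 2 (5.26% and 0%, against 3.84% and 0.563% of all genes) and 2 of 11 and 7 of 19 without H3K27me3 replicates 1 and 2 (18.2% and 36.8%, against 10.2% and 18.04%).

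Genes of somatic testis cells had almost no H3K4me3 fragments. Of 19 Sertoli and Leydig cell genes, 11 carried H3K27me3 only, 1 both marks, 0 H3K4me3 only, and 7 neither. All 14 with enough fragments leaned to H3K27me3. Most of them reached the filter through H3K27me3 fragments, so that count is largely set by the filter. With a filter of 1 fragment, 14 of 16 leaned to H3K27me3 and 0 to H3K4me3. Wt1, a Sertoli cell transcription factor, held 0 and 1 H3K4me3 fragments and 153 and 14 H3K27me3 fragments (52.9 and 69.8 CPM, log2 difference -5.65, SE 0.51, adjusted p = 0.00268). Sox9, which directs Sertoli cell fate, held 0 and 2 against 136 and 14, and the follicle-stimulating hormone receptor gene Fshr held 0 and 0 against 158 and 6. The Sertoli cell gene Amh differed, with 1 and 3 against 0 and 0, and was too low to test. In Leydig cells, Lhcgr held 0 and 1 against 76 and 5 and the hormone gene Insl3 0 and 1 against 71 and 9. The steroidogenic genes differed, since Cyp11a1 held 0 and 0 against 16 and 2 and leaned to H3K27me3 (log2 difference -2.75, SE 0.38, adjusted p = 0.00420), while Star, Cyp17a1, and Hsd3b1 held at most 1 fragment over all 4 libraries. Inhbb, which encodes an inhibin and activin subunit and carried both marks, held 5 and 16 H3K4me3 fragments (6.37 and 7.34 CPM) and 78 and 5 H3K27me3 fragments (26.97 and 24.94 CPM, log2 difference -1.77, SE 0.23, adjusted p = 0.00335). Of 6 peritubular, immune, and vessel genes, the smooth muscle genes Myh11 and Acta2 leaned to H3K27me3 and the other 4 were too low to test. The call of Acta2 was lost with windows of 500 bp (-2.74, adjusted p = 0.164). Of the Sertoli and Leydig cell genes, 1 and 0 leaned to H3K27me3 without H3K4me3 replicates 1 and 2, when 3.84% and 0.563% of all genes did, with medians of -4.35 and -4.74 on the log2 scale. Without H3K27me3 replicates 1 and 2, 6 and 14 of these genes were tested, with medians of -5.24 and -4.57. Most of them reached the filter through the H3K27me3 library left, so the direction there is largely set by the filter.

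As a check of the labelled cell type, H3K4me3 summed over marker windows was read against H3K27me3. The 12 round spermatid markers summed to 158 and 226 CPM of H3K4me3 and 13.5 and 4.99 of H3K27me3, and 11 of them carried H3K4me3 only. For the 6 spermatocyte markers the sums were 59.9 and 78.4 against 1.38 and 4.99. The sets differ in size, so sums are not compared between sets. Median H3K4me3 over an even spread was 19.1 and 26.5 times at the spermatid and 12.2 and 19.9 times at the spermatocyte markers. Both sets had little H3K27me3, so the check does not separate spermatids from spermatocytes. The 8 spermatogonial markers gave 22.9 and 20.6 of H3K4me3 against 239 and 155 of H3K27me3, the 7 Sertoli markers 2.55 and 3.21 against 237 and 215, and the 6 Leydig markers 0 and 1.38 against 56.4 and 79.8. The 6 peritubular, immune, and vessel markers gave 1.27 and 1.38 against 53.6 and 14.97. Not every member held H3K27me3, since 3 of the 7 Sertoli and 3 of the 6 Leydig markers carried neither mark. These are chromatin fragments and not transcripts, and no RNA was compared here.

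**Figure D4:**
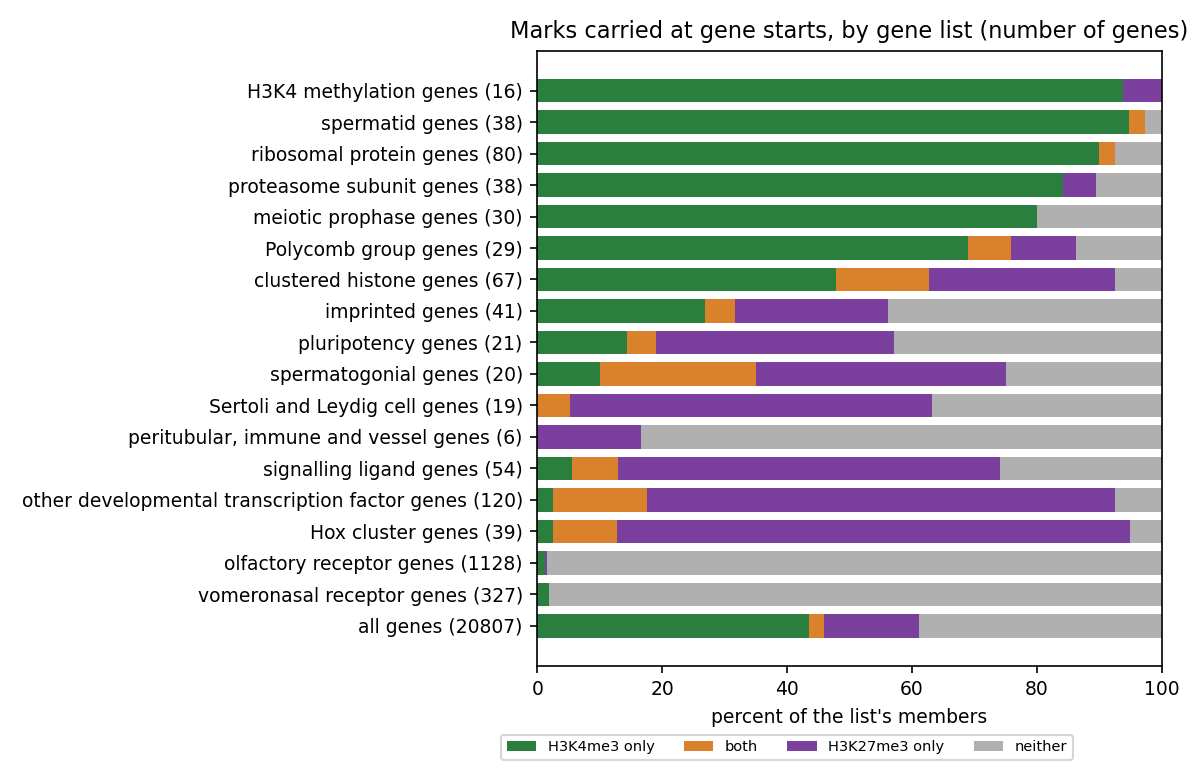
Percent of the members of each gene list (x axis) that carried H3K4me3 only, both marks, H3K27me3 only, or neither, with the number of genes in parentheses. Spermatid, ribosomal, and H3K4 methylation genes are mostly H3K4me3 only (from 90.0% to 94.7%), Hox and other developmental transcription factor genes mostly H3K27me3 only (82.1% and 75%), and chemoreceptor genes mostly neither.

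Genes of developmental regulators mostly carried H3K27me3. Of 39 Hox genes, which pattern the body axis, 32 carried H3K27me3 only, 4 both marks, 1 H3K4me3 only, and 2 neither. Of the 38 tested, 36 leaned to H3K27me3 and 0 to H3K4me3, with a median log2 difference of -4.92. Median H3K27me3 in the clusters was 32.9 and 69.8 CPM for Hoxa, 36.8 and 82.3 for Hoxb, 47.0 and 94.8 for Hoxc, and 34.9 and 69.8 for Hoxd, while the highest H3K4me3 value of any Hox gene was 10.2 CPM. Hoxd11 held 0 and 0 H3K4me3 fragments and 151 and 16 H3K27me3 fragments (52.2 and 79.8 CPM), at least 53.4-fold higher (log2 difference -5.95, SE 0.56, adjusted p = 0.00268). Hoxd3 and Hoxd4, which share a counted window and its fragments, held 5 and 13 H3K4me3 and 78 and 14 H3K27me3 fragments (log2 difference -2.32, SE 0.54, adjusted p = 0.0159). Their call was lost with windows of 500 bp (-1.72, adjusted p = 0.147) and at equal depth (-3.82, adjusted p = 0.320). The single Hox gene with H3K4me3 only was Hoxd8, named after its values were seen, which held 3 and 13 H3K4me3 and 13 and 1 H3K27me3 fragments (log2 difference 0.24, SE 0.30, adjusted p = 0.486). The count of Hox genes leaning to H3K27me3 was 35 without H3K27me3 replicate 1 and 22 without replicate 2, but 2 and 0 without H3K4me3 replicates 1 and 2, when 10.2%, 18.04%, 3.84%, and 0.563% of all genes leaned to it.

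Of 120 other developmental transcription factor genes, 90 carried H3K27me3 only, 18 both marks (15%), 3 H3K4me3 only, and 9 neither. Both marks were carried by 2.49% of all genes but by 14.1% of all H3K27me3 carriers. Most of this list carried H3K27me3, so the latter is the nearer comparison, and the 15% is close to it. Among the 118 tested, 105 leaned to H3K27me3 and 2 to H3K4me3. Sox14, a regulator of neurons, held 0 and 0 H3K4me3 fragments and 189 and 13 H3K27me3 fragments, and Pax3, a neural crest and muscle regulator, held 0 and 0 against 162 and 16. Sox18 and Alx1 were the 2 that leaned to H3K4me3, with 10 and 23 and 21 and 35 H3K4me3 fragments against 9 and 0 and 10 and 0 of H3K27me3. Signalling ligand genes of the Wnt, Fgf, Bmp, and hedgehog families followed, with 33 of 54 carrying H3K27me3 only and 42 of 46 tested leaning to it. Bmp4 held 0 and 0 against 138 and 8, and Wnt3 held 0 and 1 against 174 and 12. The 2 that leaned to H3K4me3 were Fgf20, whose window overlaps that of another gene, with 10 and 33 against 0 and 0, and Fgf10, with 6 and 12 against 6 and 0. These exceptions were not firm. Under quantile normalization 0 of the 118 transcription factor genes and 1 of the 46 ligand genes leaned to H3K4me3, against 18.04% of all genes. None of the 4 calls was kept without H3K27me3 replicate 2, and those of Sox18 and Alx1 were also lost without H3K4me3 replicate 1. With H3K4me3 replicate 1 left out, 15 of 118 developmental transcription factor genes and 3 of 46 ligand genes leaned to H3K27me3 (12.7% and 6.52%, against 3.84% of all genes), and with replicate 2 left out 0 of either did, against 0.563% of all genes. Their medians stayed at -4.63 and -4.04 in the former and -4.38 and -4.02 in the latter.

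Among the genes that write and read these marks, H3K4me3 was the more frequent mark. Of 16 H3K4 methylation genes, 15 carried H3K4me3 only and leaned to it, among them Wdr5 with 17 and 49 H3K4me3 fragments (21.7 and 22.5 CPM) and 0 and 0 H3K27me3 fragments, and the methyltransferase gene Kmt2b with 14 and 37 against 0 and 0. The exception was the related methyltransferase gene Kmt2a, named after its values were seen, with 2 and 4 against 124 and 9 (log2 difference -3.89, SE 0.35, adjusted p = 0.00268). Of 29 Polycomb group genes, 20 carried H3K4me3 only, 2 both marks, 3 H3K27me3 only, and 4 neither. Of the 27 tested, 18 leaned to H3K4me3 (66.7%, near the 58.6% of all genes) and 3 to H3K27me3. The PRC2 core genes Ezh2, Suz12, and Eed held 11 and 41, 10 and 37, and 11 and 37 H3K4me3 fragments and 0 and 0 H3K27me3 fragments each. Chromobox genes encode proteins that bind H3K27me3 in the Polycomb complex PRC1. Cbx2, named after its values were seen, held 3 and 4 H3K4me3 and 26 and 2 H3K27me3 fragments and leaned to H3K27me3 (log2 difference -1.68, SE 0.36, adjusted p = 0.0120). Cbx8 carried both marks, with 5 and 25 H3K4me3 fragments (6.37 and 11.5 CPM) and 42 and 7 H3K27me3 fragments (14.5 and 34.9 CPM), and leaned to neither (log2 difference -0.61, SE 0.39, adjusted p = 0.209). With the replicate number as a block it leaned to H3K27me3 (-1.35, adjusted p = 0.0182), as it did under quantile normalization (-2.08), with windows of 2 kb (-1.55), and without H3K27me3 replicate 1 (-1.97). Without H3K27me3 replicate 1, 10 of 16 H3K4 methylation genes and 11 of 24 Polycomb genes leaned to H3K4me3 (62.5% and 45.8%, against 34.2% of all genes), and without replicate 2, 7 of 16 and 5 of 27 (43.8% and 18.5%, against 11.8%).

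Clustered histone genes included genes of either mark. Of 67, 32 carried H3K4me3 only, 10 both marks, 20 H3K27me3 only, and 5 neither, and 24 leaned to H3K4me3 and 27 to H3K27me3. The genes of testis histones named here after their values were seen, the linker histone gene Hist1h1t and the core histone genes Hist1h2ba and Hist1h2aa, held 15 and 42, 17 and 52, and 14 and 47 H3K4me3 fragments against 1 and 0, 2 and 0, and 1 and 0 H3K27me3 fragments. Hist1h2ba and Hist1h2aa are neighbours with overlapping windows. Of the other 5 linker histone genes of the clusters, 3 carried and leaned to H3K27me3, 1 carried both marks, and Hist1h1d carried neither, with 0 and 4 H3K4me3 and 21 and 0 H3K27me3 fragments. Hist1h1b held 2 and 5 H3K4me3 and 168 and 10 H3K27me3 fragments (log2 difference -4.08, SE 0.35, adjusted p = 0.00268) and Hist1h1e held 0 and 0 against 123 and 8, in a window that overlaps that of another gene. Hist1h1a was the gene with both marks, with 15 and 41 H3K4me3 fragments (19.1 and 18.8 CPM) and 46 and 4 H3K27me3 fragments (15.9 and 19.95 CPM). The median log2 difference of the 67 was 0.19, but -1.77 under quantile normalization, which called 13 for H3K4me3 (19.4%, near the 18.04% of all genes) and 33 for H3K27me3 (49.3%, against 29.8%). Without H3K4me3 replicate 1, 20 and 6 of 66 leaned to H3K4me3 and H3K27me3 (30.3% and 9.09%, against 48.6% and 3.84% of all genes), and without its replicate 2, 20 and 0 of 67 (29.9% and 0%, against 43.96% and 0.563%). Without H3K27me3 replicate 1 the counts were 15 and 12 of 57 (26.3% and 21.1%, against 34.2% and 10.2%) and without its replicate 2, 10 and 9 of 67 (14.9% and 13.4%, against 11.8% and 18.04%). Windows of 34 of the 36 H2A and H2B genes overlap those of neighbours, and with overlapping windows left out 15 histone genes were tested, of which 5 leaned to H3K4me3 (33.3%, against 53.2% of all genes) and 9 to H3K27me3 (60%, against 32.6%), with a median of -2.09. Where copies are near-identical, the authors' alignment could have placed their fragments at either copy. How alike the windows are was not measured here.

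Pluripotency genes, which act in the early embryo and in part in primordial germ cells, leaned to H3K27me3 more often than to H3K4me3. Of 21, 8 carried H3K27me3 only, 3 H3K4me3 only, 1 both, and 9 neither, and of 16 tested 9 leaned to H3K27me3 (56.2%, against 28.3% of all genes) and 2 to H3K4me3, with a median log2 difference of -3.34. Sox2 held 0 and 1 H3K4me3 and 85 and 8 H3K27me3 fragments, Dppa3 held 0 and 0 against 94 and 4, and both leaned to H3K27me3. The core factor genes Pou5f1 and Nanog, named after their values were seen, carried neither mark by the rule, with 2 and 19 against 28 and 0 and with 0 and 3 against 4 and 0. Of 41 imprinted genes, 11 carried H3K4me3 only, 10 H3K27me3 only, 2 both, and 18 neither, with 8 leaning to H3K4me3 and 10 to H3K27me3 of 29 tested. Magel2 held 0 and 0 H3K4me3 and 141 and 6 H3K27me3 fragments. Without H3K27me3 replicate 1, 16 imprinted and 8 pluripotency genes were left to test, of which 1 and 0 leaned to H3K4me3 and 2 and 2 to H3K27me3, when 34.2% and 10.2% of all genes did. The median differences over these fewer genes were 1.63 and 1.38. Genes such as Magel2 and Dppa3, with few fragments in H3K27me3 replicate 2, no longer reached the filter. These medians are thus over other genes, and no change of direction is read from them. Without H3K4me3 replicate 2, 1 of 23 imprinted and 2 of 15 pluripotency genes leaned to H3K4me3 and 0 of either to H3K27me3, against 43.96% and 0.563% of all genes. Of the olfactory and vomeronasal receptor genes, which are expressed in the nose, 1111 of 1128 and 321 of 327 carried neither mark. The olfactory list still held 14 genes with H3K4me3 only, among them Olfr701 with 21 and 49 H3K4me3 and 0 and 0 H3K27me3 fragments, and 3 with H3K27me3 only.

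Of the 518 genes with both marks, 328 leaned to H3K27me3, 37 to H3K4me3, and 153 to neither. Nothing is read from this tally, because the rule asks for more H3K27me3 than H3K4me3. At least 2 fragments in H3K27me3 replicate 2 means at least 12.54 times an even spread (9.98 CPM), whereas the rule is met from 4.299 times in H3K27me3 replicate 1 and from 5.21 and 4.22 times in the H3K4me3 libraries. Their median level over an even spread was 10.4 and 9.64 times for H3K4me3 and 26.4 and 18.8 times for H3K27me3. Both medians lay under those of genes with a single mark, 17.4 and 19.9 times for H3K4me3 and 41.7 and 31.4 times for H3K27me3. A shared window cannot show that both marks sat on the same nucleosome, the same allele, or the same cell.

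Of the 12 genes with both marks that had the highest value in their lowest library, 8 were predicted genes with strong signal in IgG (Gm17535, Gm11168, Gm10801, Gm10800, Gm10715, Gm21738, Gm10721, and Gm10722). Gm10800 held 1987 and 1964 IgG fragments, beside 1642 and 2694 of H3K4me3 and 5386 and 685 of H3K27me3 from deeper libraries, so neither mark can be told from IgG there. Duxf3 and AW822073, of the Dux array on chromosome 10, held 19 and 118 and 28 and 110 H3K4me3 fragments and 761 and 37 and 794 and 36 H3K27me3 fragments, with at most 1 fragment in any IgG library. Their copies are near-identical, so the placement of these fragments is uncertain. The remaining 2 of the 12 were Sox17 and Ppp1r18. Sox17, a transcription factor of endoderm and primordial germ cells, held 19 and 38 H3K4me3 fragments (24.2 and 17.4 CPM) and 127 and 7 H3K27me3 fragments (43.9 and 34.9 CPM) with 0 in either IgG library, and it leaned to H3K27me3 (log2 difference -1.08, SE 0.26, adjusted p = 0.0189). That call was lost with limma-trend (-0.90, adjusted p = 0.166) and under quantile normalization (-0.72, adjusted p = 0.318). It was lost as well with every deposited fragment counted (-0.76, adjusted p = 0.147) and at equal depth (-0.47, adjusted p = 0.228). The same held without H3K4me3 replicate 2 (-0.80) and without H3K27me3 replicates 1 (-0.70) and 2 (-1.07). Ppp1r18, which encodes a protein phosphatase regulator, held 14 and 53 against 79 and 6 and leaned to neither (log2 difference -0.31, SE 0.24, adjusted p = 0.277).

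The genes below were named as the highest with both marks in their list or as nearest 0, so their kinds follow from the naming rule. Both marks were carried by 2 of 41 imprinted (4.88%), 2 of 29 Polycomb (6.90%), and 5 of 20 spermatogonial genes (25%). The share was 2.49% of all genes and 14.1% of the H3K27me3 carriers. The homeobox gene Irx5 held 11 and 35 H3K4me3 fragments (14.0 and 16.05 CPM) and 43 and 4 H3K27me3 fragments (14.9 and 19.95 CPM), a log2 difference of 0.04 (SE 0.19, adjusted p = 0.848). Nkx6-2 held 10 and 23 (12.7 and 10.5 CPM) against 32 and 2 (11.1 and 9.98 CPM), a difference of 0.00 (SE 0.20, adjusted p = 0.991). At both genes the libraries of the marks overlap, and a p that misses the threshold does not show equal levels. Irx5 was called for H3K27me3 with libraries thinned to equal depth (-0.93) and Nkx6-2 with windows of 2 kb (-0.79). The imprinted genes Cdkn1c, a cell cycle inhibitor, and Grb10, an adaptor of insulin signalling, held 7 and 28 and 10 and 27 H3K4me3 fragments and 28 and 2 and 29 and 3 H3K27me3 fragments. Neither was called, but Cdkn1c was for H3K27me3 under quantile normalization (-1.31, adjusted p = 0.0159). Kdm2b, a demethylase that brings PRC1 to CpG islands, held 7 and 59 H3K4me3 fragments (8.92 and 27.1 CPM) and 41 and 5 H3K27me3 fragments (14.2 and 24.9 CPM, log2 difference 0.48, SE 0.54, adjusted p = 0.437). Its sign was not stable, with -0.33 with the replicate number as a block, -0.25 with limma-trend, -0.64 without H3K4me3 replicate 2, and -0.76 without H3K27me3 replicate 1, none of them called. Among spermatogonial genes, Lin28a, an RNA-binding protein, held 36 and 12 H3K4me3 and 82 and 3 H3K27me3 fragments. Its H3K4me3 replicates stood at 45.9 and 5.502 CPM, farther apart than the marks (log2 difference -1.41, SE 0.98, adjusted p = 0.235). Its sign turned with the replicate number as a block (0.47), without H3K4me3 replicate 2 (0.71), without H3K27me3 replicate 1 (0.37), and at equal depth (0.11), whereas it was called for H3K27me3 with unmodified voom weights (-1.52, adjusted p = 0.00335) and with windows of 500 bp (-1.99, adjusted p = 0.0122) and 2 kb (-1.57, adjusted p = 0.0418). Sohlh1, a transcription factor of differentiating spermatogonia, held 3 and 14 against 34 and 2 and leaned to H3K27me3 (log2 difference -0.89, SE 0.28, adjusted p = 0.0382). The call of Sohlh1 was lost with the replicate number as a block (-1.06, adjusted p = 0.195) and with windows of 2 kb (-0.40, adjusted p = 0.351). It was lost as well with unmodified voom weights (-0.95, adjusted p = 0.190), with limma-trend (-0.98, adjusted p = 0.0805), and at equal depth (-1.06, adjusted p = 0.305). The same held without H3K4me3 replicate 2 or either H3K27me3 replicate.

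**Figure D5:**
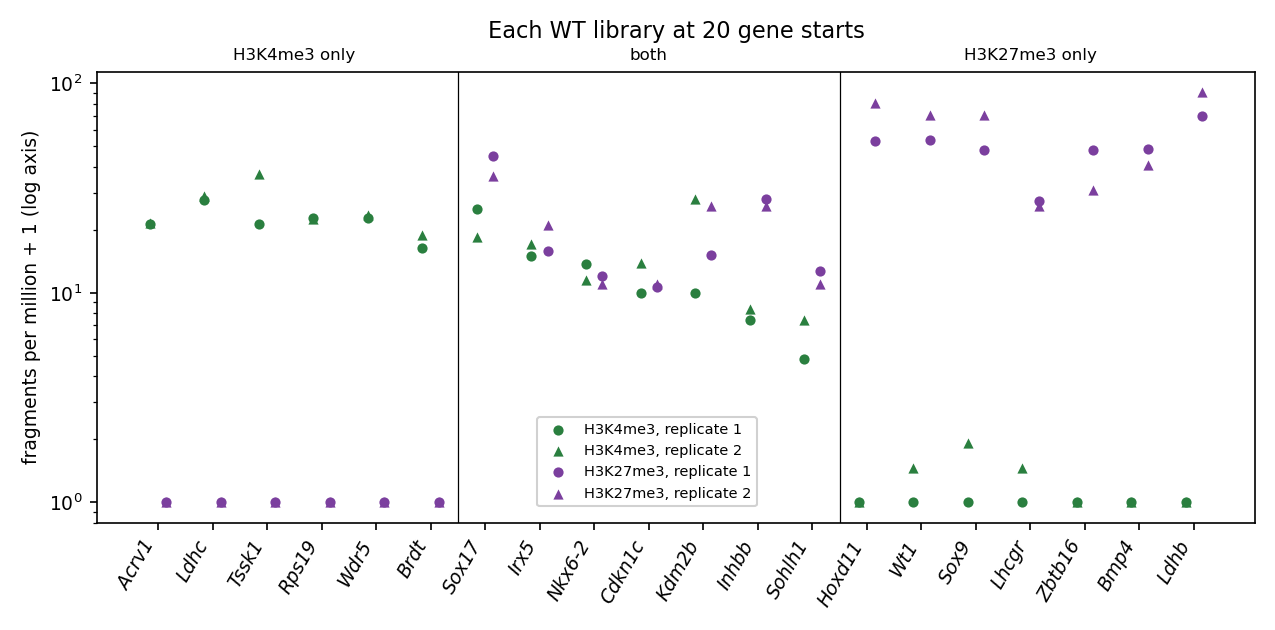
Fragments per 1000000 distinct fragments + 1 (y axis, log scale) in each of the 4 WT libraries at 20 gene starts, with circles for replicate 1 and triangles for replicate 2. H3K4me3 and H3K27me3 are far apart at genes with a single mark, such as Acrv1 (20.4 and 20.6 against 0 and 0) and Ldhb (0 and 0 against 69.2 and 89.8). They are close together at Nkx6-2, one of the genes with both marks named for a difference near 0. Over all genes with both marks the median log2 difference was -1.35.

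The call of both marks rests on few fragments in the shallow library. In H3K27me3 replicate 2, 163 of the 518 genes held exactly 2 fragments, the least the rule accepts, 138 held more than 5, and the median was 3, against 5 at genes with H3K27me3 only. The 4 libraries of both marks from the 2 KO siblings gave the same rule a second reading in other animals. Of the genes that carried H3K4me3 in WT, 9253 (96.8%) also carried it in KO, and for H3K27me3 the number was 3437 (93.7%). Of the 518 genes with both marks, 386 (74.5%) met the rule for both in KO, which is 51.7% of the 747 genes that did so there. Of the others, 47 carried H3K4me3 only in KO, 77 H3K27me3 only, and 8 neither. The KO libraries differ in genotype and depth as well as animal, so the part of each in these differences cannot be told apart.

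The 12 genes named in each direction share the smallest adjusted p of 0.00268 and have the largest log2 differences among the genes with that p, separate libraries, and windows of their own. The 12 for H3K27me3 had 0 or 1 H3K4me3 fragments each over both libraries. Gulp1, an engulfment adaptor, held 242 and 15 H3K27me3 fragments, at least 82.2-fold higher, but also 5 fragments in 1 IgG library, and Dok5, a signalling adaptor, held 192 and 14, at least 65.9-fold higher. Frem2, of the extracellular matrix, held 219 and 14 H3K27me3 fragments and the hypothalamic homeobox gene Bsx 190 and 14, with 0 H3K4me3 fragments each. The 12 for H3K4me3 included Mroh2a, with 55 and 155 H3K4me3 fragments (70.1 and 71.1 CPM) and 0 and 0 H3K27me3 fragments, and the transporter gene Abcg2, with 39 and 126 (49.7 and 57.8 CPM) against 0 and 0. The other 10 were predicted genes, such as Gm21119 with 159 and 323 H3K4me3 and 1 and 0 H3K27me3 fragments, of which Gm8879 and Gm6460 also met the rule in IgG. All 12 had few CpGs, with ratios such as 0.123 at Mroh2a, 0.0768 at Abcg2, and 0.139 at Gm21119, against a median of 0.631 for genes with H3K4me3 only. Several of these predicted genes belong to families of near-identical copies, so their fragments may be split or shared between copies.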

How the data were processed

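AutoCUT&RUN with antibodies against H3K4me3 or H3K27me3, or with IgG, was performed on spermatids sorted from 2 WT males. The authors aligned paired reads to mm10 with Bowtie2 (2.3.4.3 in the submitters' processing notes) and kept fragments within a size range. The deposited files list the start, end, and length in bp of each fragment as positions, with no normalization and no pooling. The methods name a removal of PCR duplicates, but between 62.2% and 83.4% of the fragments of the 4 libraries repeated other coordinates, so each coordinate pair was counted once. Intervals and floors cover counting error only.

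Distinct fragments with midpoints within 1000 bp of the start of 20807 autosomal protein-coding genes (GENCODE vM21, 54 symbols shared by several genes) were counted with Python 3.11.15, NumPy 2.4.6, and pandas 2.3.3. Overlapping windows (3033 genes) share fragments. A single annotated start was counted per gene, so a gene with neither mark may carry one at another start. Genes on X and Y were not analysed here. Counts were divided by the distinct fragments on chromosomes 1 to 19, X, and Y and multiplied by 1000000 (CPM), and log2(CPM + 1) values were fitted in limma 3.58.1 (R 4.3.3) with precision weights, trend, and robust moderation, two-sided, at an adjusted p of 0.05 (Benjamini-Hochberg) over the 14691 genes with at least 10 fragments. The script was tested on simulated data. A fold change on this scale understates the change of low genes and depends on the pseudocount where 1 mark is at 0, so lower bounds use a floor of 3 fragments over the 2 libraries of a mark. Exact permutation tests used SciPy 1.17.1.

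Same-numbered libraries share a dated code in the labels, and the methods name 2 WT males for the replicate experiments. Same-numbered libraries were therefore taken to share an animal, with animal and day not separable. Their deviations from the group means correlated at r = 0.0511 over 14691 genes. The main fit and the permutation tests did not use this pairing. The replicate number entered as a block only in an alternative fit. Named genes were the 12 called in each direction with the smallest adjusted p and non-overlapping windows, the 12 genes carrying both marks with the highest lowest library, the 6 nearest 0, the cell type markers, and in each list the 3 with the smallest adjusted p and the 2 highest with both marks. Other genes were named after their values were seen. The genes and lists were chosen with earlier results of these data known. Alternatives changed the block, weights, pseudocount, scaling, filter, duplicates, window, neighbours, depth, and libraries. Leaving out genes with IgG signal and fitting without trend were added after seeing the data. H3K9me3 and the KO IgG libraries were not used here. Some genes are not reported here.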

Additional observations from a re-analysis of the deposited data

How the results depend on the processing

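Each mark rests on 2 libraries, and H3K27me3 replicate 2 is the shallowest. Leaving out single libraries gave from 1725 to 6959 genes leaning to H3K4me3 and from 63 to 2645 leaning to H3K27me3, with the lone library of a mark assumed to vary like the other mark's. It gave from 587 to 984 genes carrying both marks, from 9563 to 10333 carrying H3K4me3, and from 3667 to 5436 carrying H3K27me3. With all libraries thinned to the depth of the smallest, 351 and 465 of 3967 genes tested leaned to H3K4me3 and H3K27me3, 5326 genes carried H3K4me3, and 138 carried both marks. Fewer fragments and fewer genes tested are part of these settings by construction. Quantile normalization gave 2650 genes leaning to H3K4me3. Genes carrying both marks numbered 848 at 2-fold and 229 at 8-fold over an even spread, and 323 with windows of 500 bp. The other alternatives kept the counts over all genes within 1.5 times the value reported. Counts within lists moved by more in some, among them imprinted genes leaning to H3K27me3 (16 with windows of 2 kb, against 10), Polycomb group genes leaning to it (5 with windows of 2 kb and 1 with 500 bp, against 3), and spermatogonial genes leaning to H3K4me3 (1 with unmodified voom weights, against 3). In the alternatives run, the difference in the share of fragments in windows lay between 0.485 and 3.26 percentage points, though within replicate numbers it was -0.0159 and 5.29 with windows of 2 kb.

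With the replicate number, which stands for animal and day together, as a block, 8859 genes leaned to H3K4me3 and 3926 to H3K27me3, and the share difference was 0.573 in replicate 1 and 3.17 in replicate 2. Among the 134 named genes with a test, Fgf11 (-0.99, adjusted p = 0.0482), Cbx8, Sycp3, and Dmrt1 (-2.33, adjusted p = 0.00536) became called and Sohlh1 was lost, and the block changed no other call.

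Over all settings, 2258 values of the named genes kept direction and call, 233 lost the call, 33 gained it, and 44 uncalled values moved by more than 1 SD. In 5 cases a call appeared in the opposite direction. These were Gpsm1 (-1.62) and Cdkn1c (-1.31) under quantile normalization, Nkx6-2 (-0.79) with windows of 2 kb, Irx5 (-0.93) at equal depth, and Rps29, whose values without single libraries ranged from -3.08 (without H3K27me3 replicate 1) to 2.04. The causes were not tested. Rps29 held 21 and 44 H3K4me3, 14 and 42 H3K27me3, and 7 and 19 IgG fragments.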

Other observations

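The CRE element, the palindrome TGACGTCA to which CREB and the spermatid factor CREM bind, was found most often where H3K4me3 stood alone. The letters occurred in the 300-base RefSeq promoters of 4.31% of genes with H3K4me3 only (244 of 5659) and 2.59% with both marks (7 of 270). The shares were 1.76% with H3K27me3 only (28 of 1591) and 1.14% with neither (44 of 3851), against 2.84% of all promoters. The palindrome holds a CpG, and these shares fall in the same order as the median CpGs of the promoters, 22, 20, 17, and 4. Whether CpG content gives this order was not tested. Cbx8 is among those with it. Of 26 spermatid gene promoters, 1 held it. A match is a description and shows no binding, and these shares were not tested.

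Chromosomes differed in the share of genes with H3K27me3 only, which ranged from 9.79% on chromosome 7 to 25.1% on chromosome 18. The share with H3K4me3 only ranged from 35.9% to 53.7%.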
